A study of Mus musculus with 9 samples.

Results

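Genes of glutamate receptors and of the scaffolds that hold them at the postsynaptic membrane were followed in fibroblasts converted toward GABAergic interneurons (iGABA), in interneurons of the embryonic cortex (GAD67) and in mouse embryonic fibroblasts (MEF). The set was chosen by gene symbol and held 38 of the 37224 genes in the count table: 22 receptor genes, 14 scaffold genes and 2 genes of the kinase CaMKII. The study asked how the transcriptome of the converted cells compares with that of their starting fibroblasts and with that of genuine cortical interneurons, and each group had 3 libraries, 9 in all. The cells were from C57BL/6 mice throughout. The iGABA cells had been at 14 days in vitro (DIV) of reprogramming and had started as fibroblasts at passage 0 (P0). They had spent 2 DIV in fibroblast medium before a change to neuronal medium, and were sorted for GFP. GAD67 cells were primary GAD67-GFP-positive cells of E18.5 cortex, also sorted for GFP, and MEF were unsorted E13.5 primary fibroblasts at P0. The labels name neither the conversion factors nor the reporter of the converted cells, and the MEF entry also records a move into inducing medium without saying whether it came before harvest. Sorting, age and culture therefore cannot be told apart from cell type in any comparison with MEF, and age and culture cannot be told apart from it between iGABA and GAD67.

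Glutamate is the main excitatory transmitter of the cortex, and interneurons receive it through the same receptor classes as pyramidal cells. AMPA, kainate and NMDA receptors are tetrameric channels whose subunit make-up sets calcium permeability, kinetics and magnesium block, while metabotropic receptors act through G proteins. Below the membrane, MAGUK proteins bind receptor tails, Dlgap proteins link MAGUKs to Shank proteins, and Shank proteins bind Homer, which in turn binds group I metabotropic receptors. The set is usually taken to mark excitatory postsynapses, but several members, such as Dlg1, Homer3 and Dlgap4, also work outside neurons.

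RNA was measured by sequencing, and the libraries held 27501521 to 38975523 counts. Values are CPM, counts scaled to a common library size, and 3 counts, the limit that a count of 0 allows, corresponded to 0.0717 to 0.11 CPM for counting error only. The labels were checked with marker genes. The 10 interneuron markers summed to 680.7 to 693.6 CPM in iGABA, 5023 to 5288 CPM in GAD67 and 9.38 to 11.1 CPM in MEF. The 12 pan-neuronal markers summed to 1040 to 1066, 8712 to 9170 and 109.5 to 112.2 CPM in the same groups. Against MEF, 9 of the 10 interneuron markers were higher in iGABA and 1, Sp9, was lower, with 16 counts against 50. Of the 12 pan-neuronal markers 11 were higher and 1, Stmn2, was lower, at 12.3 against 17.6 CPM per kilobase of exon. Of all genes 42.1% were higher and 39.7% lower. Among the defining interneuron genes, Gad1 averaged 405 ± 8.21 CPM in iGABA, 745 ± 25.2 CPM in GAD67 and 0.544 ± 0.0713 CPM in MEF, while Slc32a1, the vesicular GABA transporter, averaged 2.83 ± 0.433, 186 ± 3.50 and 0.0433 ± 0.0149 CPM (SD, n = 3 each). Gad1 encodes GAD67, the protein for which the reporter of the sorted GAD67 cells is named. Its level in GAD67 is therefore no independent check of that label. The reporter of the iGABA cells and their conversion factors are not named. Whether the interneuron markers check the iGABA label independently is therefore not known. The 10 fibroblast markers summed to 739.5 to 1032 CPM in iGABA, 132.6 to 141 CPM in GAD67 and 79200 to 87860 CPM in MEF. They differed unevenly between iGABA and MEF. Per kilobase of exon, mean Col1a1 was at 38.1 CPM in iGABA, 12.4 in GAD67 and 5923 in MEF. Thy1 was at 94.8, 1.89 and 236 CPM and Pdgfra at 22.6, 0.418 and 41.1 CPM in the same groups. The 12 markers of cortical glutamatergic neurons summed to 514 to 642.3 CPM in iGABA, 1172 to 1218 CPM in GAD67 and 41.07 to 45.37 CPM in MEF. Most of that sum was Eomes and Bcl11b in iGABA and Bcl11b in GAD67. Neurod6 was present at 9.25 to 21.2 CPM in GAD67, had 1 count in 1 iGABA library and none in MEF. How far glutamatergic cells contribute to the levels below was not tested. MEF libraries also held microglia and macrophage markers, at 429.7 to 469.5 CPM, against 0.263 to 0.544 CPM in iGABA and 2.20 to 2.32 CPM in GAD67.

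Most of the set was higher in both neuronal groups than in fibroblasts, and most of it was lower in iGABA than in GAD67. Against MEF, 26 members rose and 9 fell in iGABA at an adjusted p under 0.05, and 3 (Grm3, Grm5 and Grm7) did not pass; over all 18085 genes tested 81.9% were called, 42.1% higher and 39.7% lower. In GAD67 36 members rose against MEF and 2, Gria3 and Dlg1, fell, where the background was 86.9% called, 43.1% higher and 43.8% lower. Between the neuronal groups 9 members were higher in iGABA and 29 lower, against 80.6% of all genes called, 41.3% higher and 39.3% lower. The tests were edgeR's quasi-likelihood test with Benjamini-Hochberg adjustment over all tested genes.

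At 2-fold or more, 22 members rose and 5 fell in iGABA against MEF (all genes 23.9% and 23.8%), 33 rose and 2 fell in GAD67 against MEF (28.5% and 31.6%), and 5 were higher and 23 lower in iGABA than in GAD67 (26.6% and 20.0%). At 4-fold or more, the counts were 17 and 2 in iGABA against MEF (13.1% and 14.0% of all genes), 27 and 1 in GAD67 against MEF (15.7% and 21.1%), and 4 and 18 in iGABA against GAD67 (16.2% and 9.92%). The median log2 fold change of the members was 1.51 in iGABA against MEF (all genes 0.05), 3.95 in GAD67 against MEF (all genes 0.00), and -1.96 in iGABA against GAD67 (all genes 0.02). With Grin2a, which had no MEF count, set at its lower bound, these medians were 1.51, 3.62 and -1.96. All 38 members passed the filter on low counts, but Grin2a did so through iGABA, and Grm2, Grm3 and Grm5 through GAD67, so a difference from some other group was built into their entry. These genes are included in the counts and medians above. Under scaling by library size alone, iGABA against MEF had 9941 genes higher and 5283 lower, against 7618 and 7188 with the scaling used here. In bulk RNA, fewer cells of a type and less RNA per cell cannot be told apart.

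**Figure D1:**
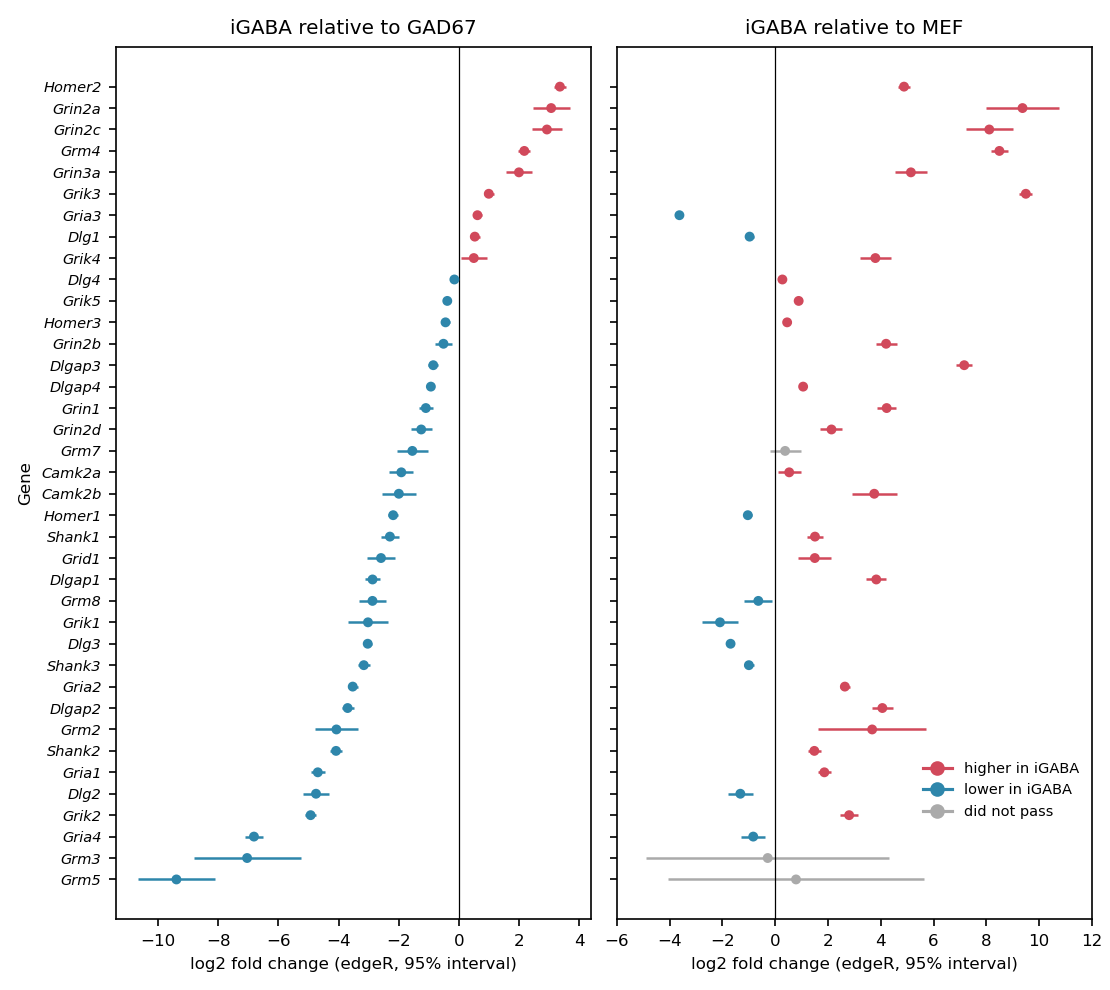
The left panel plots the log2 fold change of each member in iGABA relative to GAD67 and the right panel in iGABA relative to MEF, with 95% intervals from edgeR (3 libraries a group); colours mark genes higher, lower or not past the threshold. Values in the left panel run from Homer2 at 3.36 to Grm5 at -9.39, with 29 of 38 members left of 0. In the right panel 26 called members lie right of 0. Grm2, Grm3 and Grm5 passed the filter on low counts only through GAD67, and Grin2a only through iGABA. A difference was thus built into their entry, and their places in the left panel are no independent result. Grin2a had no MEF count and Grm2, Grm3 and Grm5 few, so their points in the right panel have no firm size.

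In GAD67 against MEF, Grik3 rose by a log2 fold change of 8.50 and Dlgap3 by 8.01. The fitted value of Grm5 was 10.18, but it rests on 4 MEF counts and ranged from 9.71 to 11.44 without 1 library. The mean was highest in iGABA for 7 members, in GAD67 for 29 and in MEF for 2 (background 26.4%, 36.7% and 36.8% of all tested genes). The 7 were Homer2, Grm4, Grik3, Grin2a, Grin2c, Grin3a and Grik4. Of these Grin2a passed the filter only through iGABA, and Grm2, Grm3 and Grm5 among the 29 only through GAD67. The 2 with their maximum in MEF were Gria3 and Dlg1. For Grik1, Grik4 and Dlg4 the libraries of the highest group overlapped those of the next, and for Grm3, Grm5 and Grm7 the middle and lowest groups overlapped. Overlap was not counted over all tested genes, so here and below it describes single genes and not the set.

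The sequences at the 5′ ends of 4 of these genes are printed to show what lies beside the RNA differences: Gria2 and Grm2, which were higher in GAD67 than in iGABA, and Grik3 and Homer2, which were higher in iGABA than in GAD67. In the deposited table, on mm10, Gria2 (ENSMUSG00000033981) lies at chr3:80684936-80802791, Grm2 (ENSMUSG00000023192) at chr9:106644537-106656109, Grik3 (ENSMUSG00000001985) at chr4:125490700-125714173 and Homer2 (ENSMUSG00000025813) at chr7:81600481-81706925. The 5′ ends come from RefSeq, assembly GRCm38.p6, and run from 250 bases before to 50 after the annotated start on the gene's own strand. Gria2 spans chr3:80802786-80803085 on the minus strand, Grm2 chr9:106656060-106656359 on the minus strand, Grik3 chr4:125490446-125490745 on the plus strand and Homer2 chr7:81706876-81707175 on the minus strand. In Gria2 and Grm2 the capitals mark AGCACC and GGACAGC, or their complement on the other strand, the left and right parts of the element RE1 that the neuronal repressor REST binds. In Grik3 and Homer2 they mark GGGCGG, the core of the GC box, or its complement on the other strand. Grm2 holds GGGCGG as well, left in lower case, so the marks show no contrast between the pairs.
Gria2: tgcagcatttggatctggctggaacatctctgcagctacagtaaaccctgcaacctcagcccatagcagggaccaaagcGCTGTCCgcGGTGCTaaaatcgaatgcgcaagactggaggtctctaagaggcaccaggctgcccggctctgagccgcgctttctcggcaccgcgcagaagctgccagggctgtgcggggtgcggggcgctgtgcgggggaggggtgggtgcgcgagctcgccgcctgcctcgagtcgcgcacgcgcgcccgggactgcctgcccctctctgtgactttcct
Grm2: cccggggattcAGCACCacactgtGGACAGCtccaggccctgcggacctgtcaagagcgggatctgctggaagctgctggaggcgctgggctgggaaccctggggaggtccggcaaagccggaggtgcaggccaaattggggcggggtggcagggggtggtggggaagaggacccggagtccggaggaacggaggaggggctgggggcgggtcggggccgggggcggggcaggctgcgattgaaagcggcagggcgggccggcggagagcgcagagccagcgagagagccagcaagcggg
Grik3: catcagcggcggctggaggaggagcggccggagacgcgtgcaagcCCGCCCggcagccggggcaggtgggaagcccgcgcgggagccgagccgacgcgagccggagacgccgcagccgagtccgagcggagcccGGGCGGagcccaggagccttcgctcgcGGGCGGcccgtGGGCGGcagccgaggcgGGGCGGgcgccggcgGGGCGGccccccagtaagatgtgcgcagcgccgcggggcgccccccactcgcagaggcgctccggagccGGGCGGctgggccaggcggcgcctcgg
Homer2: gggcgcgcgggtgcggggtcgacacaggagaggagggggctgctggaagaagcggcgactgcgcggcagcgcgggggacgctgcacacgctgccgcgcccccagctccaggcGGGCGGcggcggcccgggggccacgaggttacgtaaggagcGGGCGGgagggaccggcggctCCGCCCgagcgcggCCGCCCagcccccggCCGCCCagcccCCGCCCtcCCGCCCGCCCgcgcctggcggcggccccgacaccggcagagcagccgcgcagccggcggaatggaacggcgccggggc

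Of the 38 members 25 had such an entry. Both strands were searched, and the spacings and letters of the RE1 parts were chosen after the members' sequences had been seen. In Gria2 AGCACC and GGACAGC lay 2 bases apart on the opposite strand, the match beginning 171 bases before the start on the gene's strand, and 10 of 27025 genes (0.037%) hold it in this window. In Grm2 they lay 7 bases apart on the gene's own strand, beginning 239 bases before the start, which 3 genes (0.0111%) hold. The GC box core GGGCGG was present in 17 of the 25 members (68.0%) and in 38.2% of all genes, with 7 matches in Grik3 and 8 in Homer2, of which a pair overlap. The E-box CAGCTG was found in 7 of 25 members (28.0%; all genes 18.3%) and the homeodomain core TAATTA in none (all genes 6.12%). The members' windows had a median of 26 CpG against 8 over all genes, and those of Grik3 and Homer2 had 50 and 49. Rest, the gene of the repressor, was looked at after these values were known: it averaged 3.16 ± 1.11 CPM in iGABA, 14.8 ± 3.75 CPM in GAD67 and 118 ± 9.18 CPM in MEF (SD, n = 3 each). A match is only a run of letters, and binding was not measured.

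AMPA receptors, which carry fast excitatory transmission, were encoded by a different subunit mix in each group. Gria1 had 16.8, 20.7 and 16.0 CPM in iGABA, 477, 485 and 426 CPM in GAD67 and 4.72, 5.56 and 4.47 CPM in MEF. All 3 GAD67 libraries were far above the others, and iGABA lay above MEF without overlap. Gria1 rose 3.64-fold in iGABA against MEF (log2 fold change 1.86, SE 0.12, adjusted p = 6.89e-09, edgeR) and was 25.8-fold lower in iGABA than in GAD67 (log2 fold change -4.69, SE 0.10, adjusted p = 2.19e-13, edgeR). Gria2 had 37.8, 38.03 and 34.5 CPM in iGABA, 436, 410.3 and 430.3 CPM in GAD67 and 6.92, 5.43 and 5.44 CPM in MEF. Gria2 encodes the subunit whose edited form makes the channel impermeable to calcium, and its groups stood in the same order as those of Gria1. It rose 6.24-fold in iGABA against MEF (log2 fold change 2.64, SE 0.09, adjusted p = 9.83e-12, edgeR) and was 11.6-fold lower than in GAD67 (log2 fold change -3.53, SE 0.08, adjusted p = 1.75e-13, edgeR). Its printed 5′ end holds the closely spaced RE1 parts.

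Gria3 and Gria4 departed from that order. Gria3 had 15.1, 13.4 and 14.4 CPM in iGABA, 9.94, 9.25 and 8.75 CPM in GAD67 and 167, 179 and 184 CPM in MEF. Gria3 was the AMPA subunit gene of fibroblasts, with every MEF library above every neuronal one. It fell in iGABA against MEF (log2 fold change -3.62, SE 0.07, adjusted p = 7.65e-14, edgeR) and in GAD67 against MEF (log2 fold change -4.24, SE 0.07, adjusted p = 1.15e-14, edgeR), and was 1.53-fold higher in iGABA than in GAD67 (adjusted p = 5.20e-06, edgeR). Gria4 had 1.04, 1.05 and 1.001 CPM in iGABA, 113, 102 and 135 CPM in GAD67 and 1.83, 1.51 and 2.14 CPM in MEF. Gria4, a subunit of fast-gated channels in many interneurons, was high in all 3 GAD67 libraries and near 1 or 2 CPM elsewhere. It was 113-fold lower in iGABA than in GAD67 (log2 fold change -6.81, SE 0.14, adjusted p = 1.35e-13, edgeR). Its call against MEF (log2 fold change -0.83, adjusted p = 0.00289, edgeR) was lost under scaling by library size alone, at -0.41.

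Taken per kilobase of exon within each library, so that scaling between libraries drops out, Gria2 made up 53.6 ± 1.19% of AMPA subunit RNA in iGABA, 38.8 ± 1.13% in GAD67 and 4.31 ± 0.803% in MEF (SD, n = 3 each). Gria1 made up 29.9 ± 2.63%, 48.6 ± 2.91% and 4.10 ± 0.486%, and Gria3 14.8 ± 1.51%, 0.599 ± 0.0266% and 90.1 ± 0.920% in the same groups. Gria4 held 1.70 ± 0.0609% in iGABA, 12.04 ± 1.84% in GAD67 and 1.499 ± 0.246% in MEF. The fibroblast pool was thus almost all Gria3, while both neuronal pools were led by Gria1 and Gria2, in opposite order. Over the 8 families examined, 93 such share differences were tested by a two-sided exact permutation test, whose smallest possible p with 3 libraries against 3 is 0.1. Differences without overlap of the groups reached that smallest p (0.111 after Benjamini-Hochberg adjustment), so none could pass 0.05. Shares within a family add up to the whole, so these differences are not independent.

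Kainate receptors, which tune release and excitability, held the most abundant member of the set in iGABA. Grik3 had 1207, 1261 and 1147 CPM in iGABA, 609.7, 589.9 and 616 CPM in GAD67 and 2.01, 1.74 and 1.30 CPM in MEF. Grik3 encodes a low-affinity channel subunit, and every iGABA library was above every GAD67 library, with MEF at 2.01 CPM or less. It was 1.99-fold higher in iGABA than in GAD67 (log2 fold change 0.99, SE 0.07, adjusted p = 3.76e-08, edgeR) and rose by a log2 fold change of 9.49 against MEF (SE 0.12, adjusted p = 2.70e-15, edgeR). Per kilobase of exon its level was 134 ± 6.37 CPM in iGABA, the highest of all members there, against 67.5 ± 1.52 CPM in GAD67 and 0.188 ± 0.0402 CPM in MEF. Grik5 had 214, 229 and 215 CPM in iGABA, 291, 303 and 267 CPM in GAD67 and 121, 117 and 117 CPM in MEF. Grik5, an obligate partner subunit, was present in every library, lowest in MEF, and the groups did not overlap. It rose in iGABA against MEF (log2 fold change 0.89) and was lower than in GAD67 (log2 fold change -0.39, adjusted p = 3.49e-05, edgeR).

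The remaining kainate genes separated the neuronal groups in other ways. Grik2 had 2.60, 2.32 and 2.28 CPM in iGABA, 74.8, 73.4 and 72.1 CPM in GAD67 and 0.330, 0.395 and 0.302 CPM in MEF. Grik2, the gene of the principal channel-forming subunit of cortex, was 30.5-fold lower in iGABA than in GAD67 (log2 fold change -4.93, SE 0.08, adjusted p = 2.50e-14, edgeR), with no overlap among the groups, and rose in iGABA against MEF (log2 fold change 2.80). Grik4 had 10.1, 9.79 and 11.9 CPM in iGABA, 7.64, 9.996 and 4.89 CPM in GAD67 and 0.806, 0.658 and 0.815 CPM in MEF. Grik4, a high-affinity partner subunit, rose in both neuronal groups against MEF, but the iGABA and GAD67 libraries overlapped. Its call between the neuronal groups (log2 fold change 0.50, adjusted p = 0.0355, edgeR) was not stable: it was lost with DESeq2, with only those groups in the fit and without 1 library, whether any MEF library, iGABA replicate 4 or 6, or GAD67 replicate 7 or 9, where it ranged from 0.25 to 0.54. Grik1, a subunit of interneuron kainate channels, averaged 1.03 ± 0.148 CPM in iGABA, 8.45 ± 3.30 CPM in GAD67 and 4.41 ± 0.863 CPM in MEF, with overlap of GAD67 and MEF; it fell in iGABA against both (log2 fold change -2.09 against MEF and -3.02 against GAD67). Of kainate subunit RNA per kilobase, Grik3 made up 69.2 ± 0.655% in iGABA, 43.5 ± 2.30% in GAD67 and 0.575 ± 0.119% in MEF, and Grik5 29.5 ± 0.562%, 48.2 ± 1.55% and 94.6 ± 0.774% (SD, n = 3 each).

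**Figure D2:**
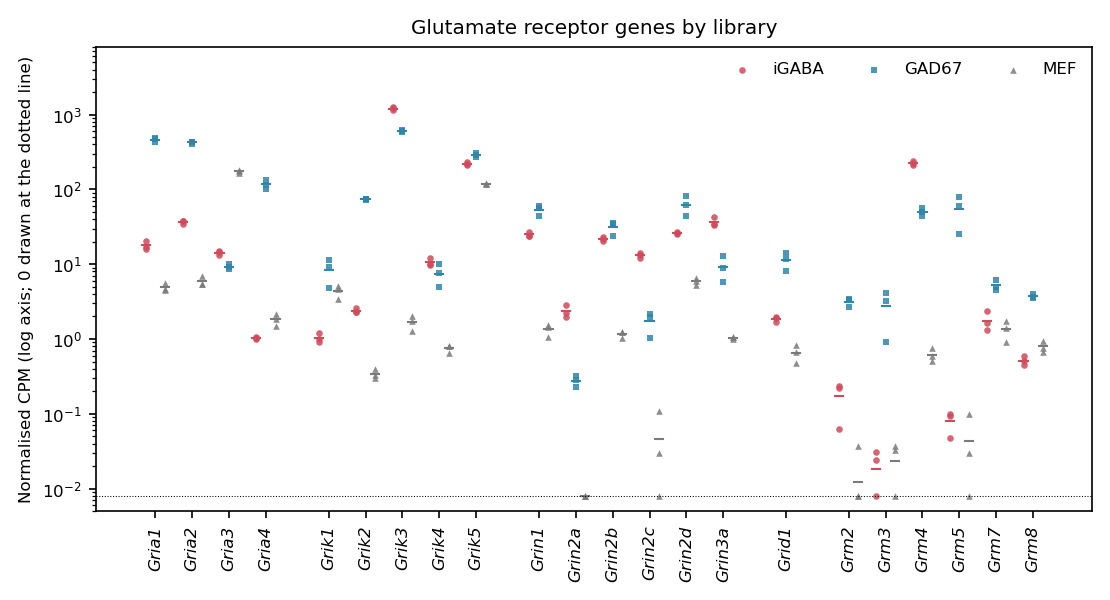
Each point is the normalised CPM of a receptor gene in 1 library (log axis) and each bar a group mean of 3 libraries, with iGABA, GAD67 and MEF side by side and values of 0 drawn at the dotted line. Gria1, Gria2 and Gria4 are highest in GAD67, Gria3 in MEF, and Grik3, Grm4, Grin2c and Grin3a in iGABA.

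NMDA receptors need the obligate subunit encoded by Grin1, with GluN2 and GluN3 subunits setting their kinetics and magnesium block. Grin1 had 23.8, 27.1 and 24.0 CPM in iGABA, 56.5, 60.0 and 44.1 CPM in GAD67 and 1.54, 1.45 and 1.06 CPM in MEF. Both neuronal groups were above MEF, and every GAD67 library was above every iGABA library. Grin1 rose 18.7-fold in iGABA against MEF (log2 fold change 4.22, SE 0.16, adjusted p = 4.57e-11, edgeR) and was lower than in GAD67 (log2 fold change -1.10, SE 0.11, adjusted p = 8.85e-07, edgeR). Of its exon bases 13.47% are shared with Grin1os on the opposite strand, which had 7, 22 and 0 counts in all libraries of iGABA, GAD67 and MEF. Grin2b had 21.7, 20.7 and 22.8 CPM in iGABA, 35.4, 34.0 and 23.6 CPM in GAD67 and 1.03, 1.25 and 1.24 CPM in MEF. Grin2b encodes the GluN2B subunit of early synapses and was closest to GAD67 among the GluN2 genes, at a log2 fold change of -0.51 in iGABA against GAD67 (SE 0.13, adjusted p = 0.00238, edgeR) and 4.202 against MEF. Its groups did not overlap, although GAD67 replicate 9, at 23.6 CPM, was just above the highest iGABA library. Grin2d had 26.7, 25.1 and 26.1 CPM in iGABA, 60.9, 44.1 and 80.7 CPM in GAD67 and 6.48, 5.30 and 5.98 CPM in MEF. Grin2d, the subunit gene typical of interneurons, was highest in GAD67 and lowest in MEF, with no overlap. It was 2.38-fold lower in iGABA than in GAD67 (log2 fold change -1.25, SE 0.16, adjusted p = 9.88e-06, edgeR).

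By contrast 3 NMDA receptor genes were highest in iGABA. Grin2c had 12.1, 13.2 and 14.2 CPM in iGABA, 2.15, 1.99 and 1.02 CPM in GAD67 and 0.110, 0 and 0.0302 CPM in MEF. Grin2c, best known from cerebellar granule cells, was 7.60-fold higher in iGABA than in GAD67 (log2 fold change 2.93, SE 0.23, adjusted p = 5.87e-08, edgeR), with every iGABA library above all the others. Grin3a had 34.4, 42.2 and 33.3 CPM in iGABA, 8.79, 12.9 and 5.85 CPM in GAD67 and 1.06, 1.05 and 0.997 CPM in MEF. Grin3a, whose GluN3A product lowers calcium entry in young neurons, was 3.99-fold higher in iGABA than in GAD67 (log2 fold change 1.996, SE 0.20, adjusted p = 9.76e-07, edgeR), again with no overlap. Grin2a had 2.25, 1.96 and 2.85 CPM in iGABA, 0.281, 0.318 and 0.226 CPM in GAD67 and 0, 0 and 0 CPM in MEF. Grin2a, the subunit gene of mature synapses, stayed at a few CPM even in iGABA, with 264 counts in iGABA, 31 in GAD67 and 0 in MEF. The level in iGABA was at least 69.9-fold and in GAD67 at least 8.36-fold above MEF, taking 3 counts over the group as the floor. It was higher in iGABA than in GAD67 (log2 fold change 3.07), but Grin2a passed the filter on low counts only through iGABA, so no p-value is given. Of GluN2 RNA per kilobase, Grin2c held 25.8 ± 1.59% in iGABA, 2.42 ± 1.08% in GAD67 and 0.750 ± 0.895% in MEF (SD, n = 3 each). Grin2d led the GluN2 pool in every group, at 43.7 ± 1.68% in iGABA, 70.6 ± 9.93% in GAD67 and 86.8 ± 1.37% in MEF. Grid1 had 1.93, 1.98 and 1.69 CPM in iGABA, 11.6, 14.2 and 8.08 CPM in GAD67 and 0.476, 0.823 and 0.664 CPM in MEF. Grid1, a delta receptor gene that acts as a synaptic organiser, was lower in iGABA than in GAD67 (log2 fold change -2.59, SE 0.21, adjusted p = 9.36e-08, edgeR) and higher than in MEF (log2 fold change 1.502).

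Among metabotropic receptors, Grm4 was higher and Grm2, Grm3, Grm5, Grm7 and Grm8 were lower in iGABA than in GAD67. Per kilobase of exon Grm4 was the highest of them in iGABA, at 42.7 ± 2.61 CPM, and in GAD67 Grm4 at 9.47 ± 1.26 and Grm5 at 6.93 ± 3.51 CPM did not differ beyond their spread (SD, n = 3 each). Grm4 had 226, 214 and 242 CPM in iGABA, 50.3, 43.7 and 57.0 CPM in GAD67 and 0.513, 0.592 and 0.755 CPM in MEF. Grm4, a group III receptor that inhibits transmitter release, was 4.51-fold higher in iGABA than in GAD67 (log2 fold change 2.17, SE 0.09, adjusted p = 8.42e-11, edgeR) and rose by a log2 fold change of 8.49 against MEF, with all 3 groups apart. Grm5 had 0.0990, 0.0478 and 0.0938 CPM in iGABA, 60.6, 80.1 and 25.02 CPM in GAD67 and 0, 0.0987 and 0.0302 CPM in MEF. Grm5, the group I receptor that binds Homer, had 9 counts in all iGABA libraries, 6283 in GAD67 and 4 in MEF, and within GAD67 it was lowest in replicate 9. It was lower in iGABA than in GAD67 (log2 fold change -9.39, SE 0.59), and the iGABA and MEF libraries overlapped (adjusted p = 0.751, edgeR). Grm5 passed the filter on low counts only through GAD67. A difference in this direction was thus built into its entry, and no p-value is given for it. The group II genes were low throughout. Grm2 had 21 counts in iGABA, 351 in GAD67 and 1 in MEF, a ratio to MEF of 16.7 (95% counting interval 2.68 to 690.2) in iGABA and 284 (50.6 to 11250) in GAD67. Grm3 had 2, 315 and 2 counts in the same groups, so that GAD67 exceeded iGABA by a ratio of 160.3 (44.0 to 1329), and no fold is given between iGABA and MEF. Grm2 was also lower in iGABA than in GAD67 (log2 fold change -4.07). Like Grm3, it passed the filter only through GAD67, so no p-value is given for either gene here. Grm7 averaged 1.76 ± 0.526 CPM in iGABA, 5.22 ± 0.859 CPM in GAD67 and 1.36 ± 0.417 CPM in MEF, and Grm8 0.514 ± 0.0751, 3.76 ± 0.219 and 0.796 ± 0.147 CPM (SD, n = 3 each). Both encode group III receptors of presynaptic terminals and were lower in iGABA than in GAD67, with log2 fold changes of -1.55 and -2.87. The fall of Grm8 in iGABA against MEF (log2 fold change -0.64, adjusted p = 0.0278, edgeR) was lost without a filter on low counts, under scaling by library size alone and without any of 3 single libraries (MEF replicate 2, iGABA replicate 4 or iGABA replicate 5).

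**Figure D3:**
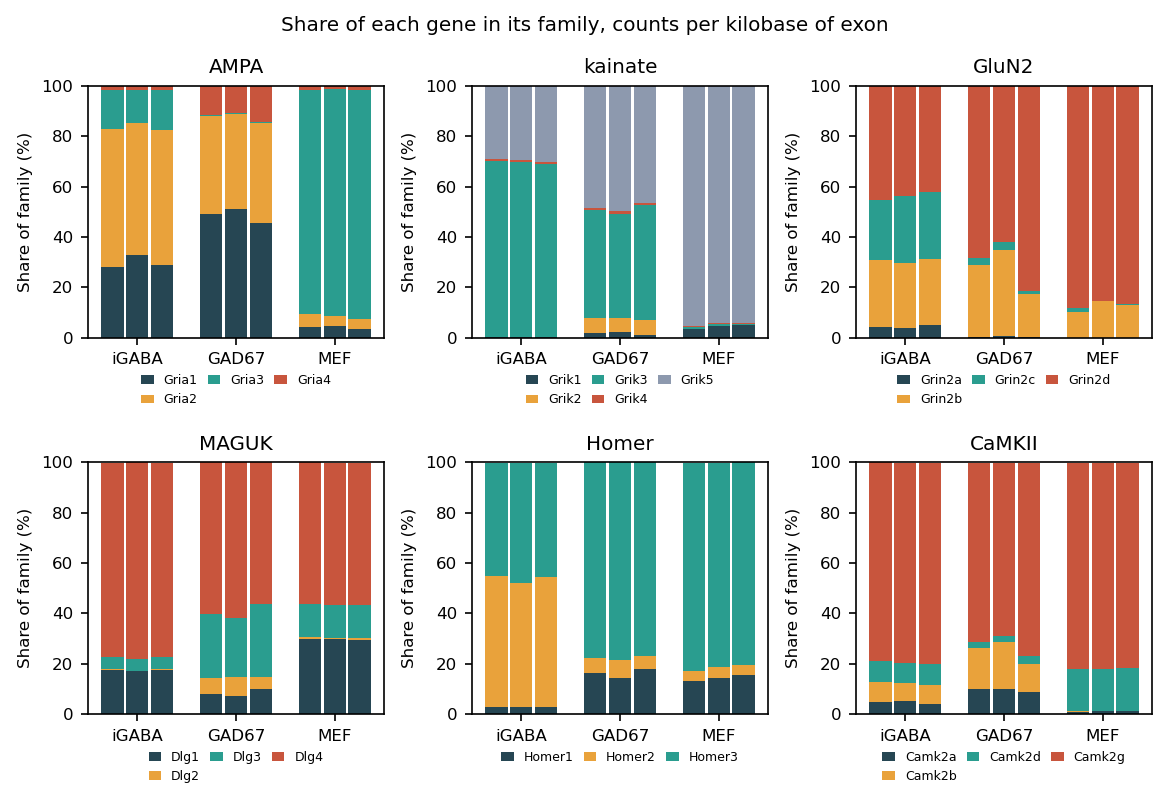
Each stacked bar is 1 library, with 3 for iGABA, 3 for GAD67 and 3 for MEF, and its colours give the share of each gene in the RNA of its family, in percent of counts per kilobase of exon. As group means, Gria3 takes 90.1% of the AMPA pool in MEF, Grik3 69.2% of the kainate pool in iGABA, and Homer2 51.0% of the Homer pool in iGABA.

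MAGUK scaffolds, which anchor receptors through PDZ domains, did not move together. Dlg4 had 253, 265 and 252 CPM in iGABA, 290.5, 306 and 258 CPM in GAD67 and 212, 214 and 211 CPM in MEF. Dlg4, the gene of PSD-95, was abundant in every library including fibroblasts, and the iGABA and GAD67 libraries overlapped. Its rise in iGABA against MEF was small (log2 fold change 0.27, adjusted p = 0.00126, edgeR). The difference from GAD67 (log2 fold change -0.15, adjusted p = 0.0409, edgeR) was lost without any of 4 single libraries (iGABA replicates 4 and 6, GAD67 replicates 7 and 8; -0.14 to -0.10) and turned to 0.04 under scaling by library size alone. Dlg1 had 103, 103 and 103 CPM in iGABA, 69.5, 63.2 and 81.8 CPM in GAD67 and 204, 202 and 199 CPM in MEF. Dlg1, whose product SAP97 also organises epithelial junctions, was highest in MEF and higher in iGABA than in GAD67, without overlap. It fell in iGABA against MEF (log2 fold change -0.97, SE 0.08, adjusted p = 6.68e-08, edgeR) and was 1.44-fold higher than in GAD67 (adjusted p = 2.89e-05, edgeR).

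Dlg2 and Dlg3 were lower in iGABA than in both other groups. Dlg2 had 2.30, 2.51 and 2.19 CPM in iGABA, 64.5, 78.8 and 46.0 CPM in GAD67 and 6.63, 5.26 and 5.68 CPM in MEF. Dlg3 had 18.7, 17.6 and 17.3 CPM in iGABA, 145, 137 and 157 CPM in GAD67 and 57.8, 57.3 and 57.4 CPM in MEF. In both genes every iGABA library was below every MEF library, and every GAD67 library above. Dlg2, the gene of PSD-93, was 26.9-fold lower in iGABA than in GAD67 (log2 fold change -4.75, SE 0.19, adjusted p = 8.15e-11, edgeR) and fell against MEF (log2 fold change -1.32). Dlg3, the gene of SAP102, an early synaptic MAGUK, was 8.18-fold lower in iGABA than in GAD67 (log2 fold change -3.03, SE 0.06, adjusted p = 1.54e-13, edgeR) and fell against MEF (log2 fold change -1.69). Dlg4 accordingly made up 77.7 ± 0.469% of MAGUK RNA per kilobase in iGABA, 59.3 ± 2.83% in GAD67 and 56.4 ± 0.292% in MEF (SD, n = 3 each), and Dlg3 4.605 ± 0.225%, 26.0 ± 2.79% and 13.0 ± 0.0799%.

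All 3 Shank genes, which encode the master scaffolds of the deep postsynaptic density, were lower in iGABA than in GAD67. Shank1 had 65.4, 73.1 and 66.6 CPM in iGABA, 345, 322 and 339.7 CPM in GAD67 and 31.2, 23.1 and 18.1 CPM in MEF. Shank2 had 7.10, 8.58 and 7.44 CPM in iGABA, 135, 129 and 129.6 CPM in GAD67 and 2.31, 2.60 and 3.29 CPM in MEF. Both stood highest in GAD67 and lowest in MEF, with no overlap among the groups. Shank1 was 4.91-fold lower in iGABA than in GAD67 (log2 fold change -2.29, SE 0.13, adjusted p = 3.05e-09, edgeR) and rose 2.85-fold against MEF. Shank2 was 17.0-fold lower than in GAD67 (log2 fold change -4.09, SE 0.09, adjusted p = 2.51e-13, edgeR) and rose 2.80-fold against MEF. Shank3 had 6.43, 6.02 and 6.75 CPM in iGABA, 60.2, 57.6 and 53.8 CPM in GAD67 and 13.4, 13.46 and 11.4 CPM in MEF. Shank3 differed from both in that iGABA lay below MEF: it fell by 0.99 on the log2 scale against MEF (adjusted p = 3.38e-07, edgeR) and was 8.95-fold lower than in GAD67.

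The Homer genes, whose products crosslink Shank and metabotropic receptors, stood in a different proportion in iGABA. Homer2 had 224, 209 and 228 CPM in iGABA, 21.4, 25.03 and 18.0 CPM in GAD67 and 7.54, 7.83 and 7.07 CPM in MEF. All iGABA libraries were far above the rest, and GAD67 was above MEF. Homer2 was 10.3-fold higher in iGABA than in GAD67 (log2 fold change 3.36, SE 0.10, adjusted p = 2.88e-12, edgeR), the largest difference among the 9 members higher in iGABA, and rose 29.5-fold against MEF (log2 fold change 4.88, SE 0.11, adjusted p = 2.84e-13, edgeR). Homer1 had 12.1, 11.9 and 11.04 CPM in iGABA, 55.1, 49.1 and 55.7 CPM in GAD67 and 23.8, 23.4 and 24.8 CPM in MEF. Homer1, which also gives a short activity-induced form that gene counts do not separate, was lowest in every iGABA library. It fell against MEF (log2 fold change -1.03, SE 0.07, adjusted p = 2.47e-08, edgeR) and was 4.55-fold lower than in GAD67. Homer3 had 60.5, 62.6 and 61.2 CPM in iGABA, 85.1, 86.9 and 79.0 CPM in GAD67 and 48.4, 43.7 and 42.5 CPM in MEF. Homer3, also expressed outside the brain, was highest in GAD67 and lowest in MEF, with log2 fold changes of 0.45 in iGABA against MEF and -0.45 against GAD67. Of its exon bases 25.4% are shared with Ddx49 on the opposite strand, which had 2855, 5770 and 2454 counts in all libraries of iGABA, GAD67 and MEF, so these values are uncertain without the strand setting of the counting. Homer2 made up 51.0 ± 1.52% of Homer RNA per kilobase in iGABA, 6.13 ± 0.790% in GAD67 and 4.199 ± 0.265% in MEF, and Homer1 2.88 ± 0.172%, 16.2 ± 1.62% and 14.3 ± 1.03% (SD, n = 3 each).

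The Dlgap genes, encoding the link between MAGUKs and Shanks, rose in iGABA against MEF without exception and were lower than in GAD67 without exception. Dlgap3 had 65.9, 64.7 and 74.3 CPM in iGABA, 129, 130.5 and 110.1 CPM in GAD67 and 0.439, 0.428 and 0.544 CPM in MEF. Dlgap4 had 263, 276 and 262 CPM in iGABA, 522, 485 and 521 CPM in GAD67 and 131, 129 and 125 CPM in MEF. For both the groups ran in the order GAD67, iGABA, MEF with no overlap, and both stood within 2-fold of GAD67. Dlgap3, known for its striatal role, rose by a log2 fold change of 7.16 in iGABA against MEF (SE 0.14, adjusted p = 6.68e-14, edgeR) and was 1.81-fold lower than in GAD67. Dlgap4, the broadly expressed paralogue, rose 2.09-fold against MEF (adjusted p = 7.06e-10, edgeR) and was 1.91-fold lower than in GAD67. Dlgap1 had 17.0, 17.3 and 17.1 CPM in iGABA, 131, 142 and 104 CPM in GAD67 and 1.54, 1.22 and 0.906 CPM in MEF. Dlgap2 had 2.75, 2.99 and 2.69 CPM in iGABA, 38.2, 35.7 and 35.8 CPM in GAD67 and 0.183, 0.165 and 0.151 CPM in MEF. These paralogues lay farther below GAD67, again with no overlap. Dlgap1 was 7.32-fold lower in iGABA than in GAD67 (log2 fold change -2.87, SE 0.11, adjusted p = 5.55e-11, edgeR) and Dlgap2 13.0-fold lower (log2 fold change -3.70, SE 0.09, adjusted p = 7.06e-13, edgeR), while both rose against MEF, by log2 fold changes of 3.83 and 4.06.

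CaMKII is the calcium-activated kinase of the postsynaptic density. Camk2a had 7.17, 7.93 and 6.19 CPM in iGABA, 28.9, 33.0 and 18.6 CPM in GAD67 and 4.36, 5.33 and 5.04 CPM in MEF. Camk2a, the isoform gene that excitatory neurons are known for, was highest in GAD67, and iGABA exceeded MEF by little. Its call in iGABA against MEF (log2 fold change 0.53, adjusted p = 0.0266, edgeR) was lost without any of 4 single libraries (MEF replicates 1 and 3, iGABA replicates 4 and 5; 0.45 to 0.55). It was 3.77-fold lower in iGABA than in GAD67 (log2 fold change -1.91, SE 0.18, adjusted p = 4.98e-07, edgeR). Camk2b had 14.2, 12.5 and 13.6 CPM in iGABA, 57.2, 75.1 and 28.3 CPM in GAD67 and 1.17, 0.691 and 1.12 CPM in MEF. Camk2b, which also binds actin, rose 13.49-fold in iGABA against MEF (log2 fold change 3.75, SE 0.39, adjusted p = 1.22e-06, edgeR) and was 3.99-fold lower than in GAD67 (log2 fold change -1.997, SE 0.26, adjusted p = 1.12e-05, edgeR), with no overlap. With the other 2 isoform genes counted in, Camk2g held 79.4 ± 0.609% of CaMKII RNA per kilobase in iGABA, 72.4 ± 4.04% in GAD67 and 82.0 ± 0.372% in MEF. Camk2b held 7.48 ± 0.502%, 15.3 ± 3.93% and 0.188 ± 0.0480% (SD, n = 3 each).

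**Figure D4:**
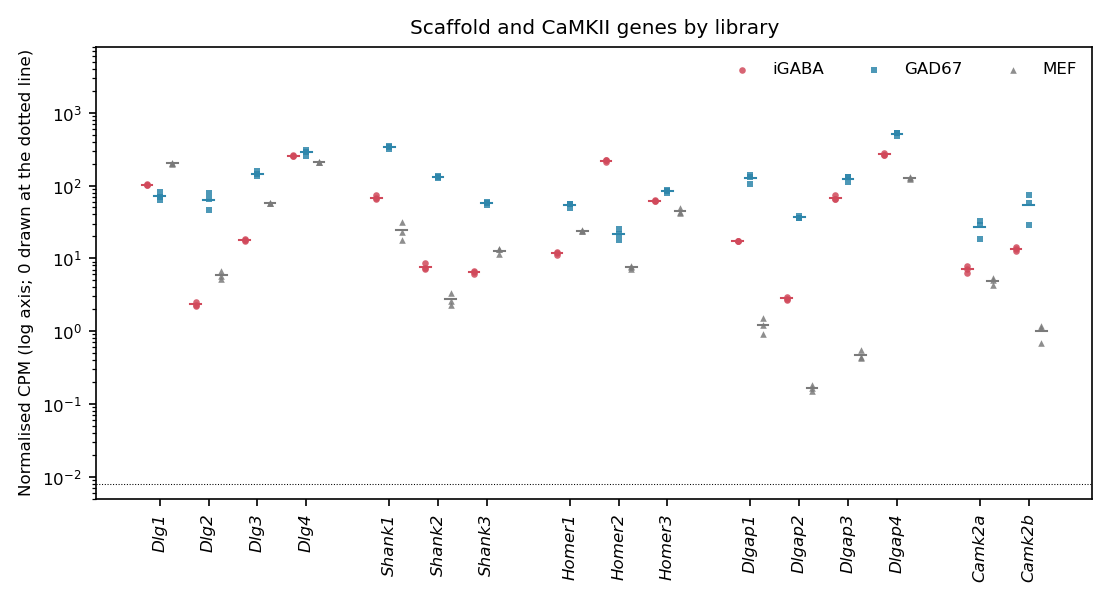
Each point is the normalised CPM of a scaffold or CaMKII gene in 1 library (log axis) and each bar a group mean of 3 libraries, with iGABA, GAD67 and MEF side by side. Homer2 is highest in iGABA at a mean of 220.4 CPM, Dlg1 in MEF at 202 CPM, and Dlg2, Dlg3, Shank3 and Homer1 are lower in iGABA than in either other group.

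Levels of different genes were set against each other only per kilobase of exon. In iGABA the 4 highest members were Grik3 at 134 ± 6.37, Grik5 at 57.3 ± 2.22, Dlg4 at 51.5 ± 1.47 and Grm4 at 42.7 ± 2.61 CPM per kilobase. In GAD67 they were Gria1 at 76.6 ± 5.31, Grik5 at 74.8 ± 4.76, Grik3 at 67.5 ± 1.52 and Gria2 at 61.2 ± 1.94 CPM per kilobase, with Dlgap4 next at 60.3 ± 2.47. There the gaps between Gria1 and Grik5 and between Gria2 and Dlgap4 were smaller than the SD between libraries. The genes share these libraries, and their order within each library was not tested. In MEF they were Dlg4 at 42.6 ± 0.221, Grik5 at 30.9 ± 0.625, Dlg1 at 22.5 ± 0.296 and Gria3 at 17.9 ± 0.881 CPM per kilobase (SD, n = 3 each). Grik5 was thus among the first 4 in every group and Grik3 in both neuronal groups.

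Auxiliary subunits, which control the surface delivery and gating of AMPA and kainate receptors, were mostly higher in both neuronal groups than in fibroblasts. Of 18 genes on the list, 15 rose and 2 fell in iGABA against MEF, all 18 rose in GAD67 against MEF, and 4 were higher and 14 lower in iGABA than in GAD67. Of all genes 42.1% and 39.7%, 43.1% and 43.8%, and 41.3% and 39.3% were higher and lower in these comparisons. The median log2 fold change of the list was 3.10, 5.11 and -2.75 in these comparisons, beside 0.05, 0.00 and 0.02 over all genes. Shisa7 had 58.8, 62.7 and 54.7 CPM in iGABA, 98.4, 105 and 90.6 CPM in GAD67 and 0.110, 0.165 and 0.0604 CPM in MEF. Cnih3 had 22.0, 22.2 and 20.4 CPM in iGABA, 4.27, 4.83 and 3.13 CPM in GAD67 and 0.293, 0 and 0.181 CPM in MEF. Cacng4 had 20.7, 19.2 and 20.9 CPM in iGABA, 304, 302 and 299 CPM in GAD67 and 0.659, 0.954 and 0.815 CPM in MEF. Shisa7 (log2 fold change 9.01), the cornichon gene Cnih3 (7.09) and the TARP gene Cacng4 (4.63) had the 3 largest rises in iGABA against MEF among genes of the list with a group mean of at least 10 CPM. Cnih3 and Cpt1c, which regulates AMPA receptor export, were also higher in iGABA than in GAD67 (log2 fold changes 2.40 and 1.11). At the other end, Neto1, a kainate and NMDA receptor partner, had 0.346, 0.215 and 0.500 CPM in iGABA, 50.8, 60.2 and 30.5 CPM in GAD67 and 0.293, 0.823 and 0.332 CPM in MEF, with a log2 fold change of -7.09 in iGABA against GAD67 (adjusted p = 5.15e-10, edgeR). Among genes at that level, Syndig1 and the TARP gene Cacng3 followed, at -6.28 and -6.15. Syndig1 and Porcn fell in iGABA against MEF (log2 fold changes -4.43 and -0.70).

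**Figure D5:**
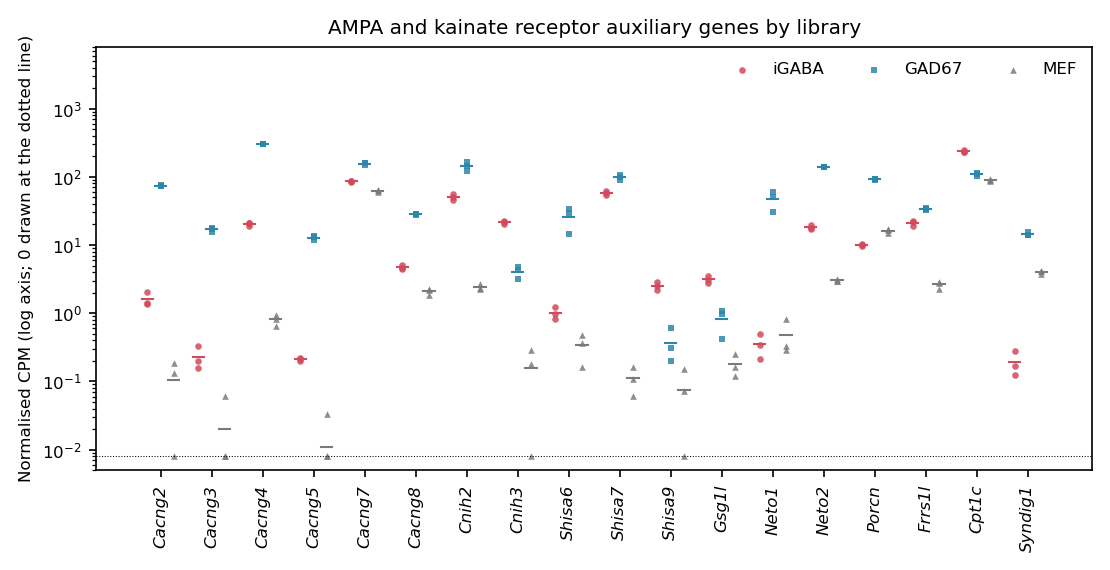
Each point is the normalised CPM of an auxiliary subunit gene in 1 library (log axis) and each bar a group mean of 3 libraries, with iGABA, GAD67 and MEF side by side and values of 0 drawn at the dotted line. All 18 genes are higher in GAD67 than in MEF, Cnih3, Shisa9, Gsg1l and Cpt1c are highest in iGABA, and Neto1 and Syndig1 in iGABA lie below 1 CPM.

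Of 16 genes of trafficking and PDZ partners of the receptors, 10 rose and 4 fell in iGABA against MEF, 11 rose and 5 fell in GAD67 against MEF, and 7 were higher and 7 lower in iGABA than in GAD67 (all genes 42.1% and 39.7%, 43.1% and 43.8%, and 41.3% and 39.3%). The list's median log2 fold change was 0.85, 0.91 and -0.09 in these comparisons. Lin7b, part of the complex that carries NMDA receptors, averaged 15.6 ± 2.04 CPM in iGABA, 0.830 ± 0.218 CPM in GAD67 and 1.83 ± 0.590 CPM in MEF (SD, n = 3 each), and its motor Kif17 averaged 10.1 ± 1.37, 0.623 ± 0.219 and 1.47 ± 0.128 CPM. Both were higher in iGABA than in GAD67 (log2 fold changes 4.22 and 4.01), as was the sorting receptor gene Sorcs2 (2.44). Cask, another protein of that complex, fell in iGABA against MEF (log2 fold change -1.64) and was lower than in GAD67 (-1.83). The AMPA receptor anchors Grip1 and Grip2 were lower in iGABA than in GAD67, at -4.63 and -3.86.

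Of 24 other genes of the postsynaptic density, 11 rose and 10 fell in iGABA against MEF, 14 rose and 8 fell in GAD67 against MEF, and 7 were higher and 14 lower in iGABA than in GAD67, with list medians of 0.32, 1.33 and -0.79. The counts in iGABA against MEF lay near the 42.1% higher and 39.7% lower of all genes; the backgrounds were 43.1% and 43.8% in GAD67 against MEF and 41.3% and 39.3% in iGABA against GAD67. Arc had 87.4, 83.6 and 98.1 CPM in iGABA, 1.74, 1.38 and 1.02 CPM in GAD67 and 2.45, 2.63 and 2.63 CPM in MEF. Arc, an activity-induced gene whose product takes part in AMPA receptor endocytosis, was far higher in every iGABA library than elsewhere. Its log2 fold change was 5.12 against MEF (SE 0.12, adjusted p = 3.91e-13, edgeR) and 6.01 against GAD67 (SE 0.13, adjusted p = 1.55e-13, edgeR). The CaMKII inhibitor genes Camk2n2 and Camk2n1 rose in iGABA against MEF (log2 fold changes 3.78 and 3.26). Tanc1 and Baiap2, which also act outside neurons, were higher in iGABA than in GAD67 (4.18 and 3.28). Among genes with a group mean of at least 10 CPM, Lrrc7, the gene of densin-180, was lower in iGABA than in GAD67 (log2 fold change -6.46), followed by Cnksr2 (-5.64) and Anks1b (-4.84).

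Many members are very long genes. Their span in the genome ran from 11535 bases (Homer3) to 1356298 bases (Dlg2), with a median of 172060 bases against 17782 bases over all tested genes. The 14 members of 300 kb or more had a median log2 fold change of -3.29 in iGABA against GAD67, with 11 of them at least 2-fold lower, and all 489 tested genes of that length had a median of -1.48. The 14 members under 100 kb had a median of -1.18 (all genes of that length 0.08) and the 10 between had -0.20 (all genes -0.40). From the longest class to the shortest, the medians were 1.68, 0.39 and 1.82 in iGABA against MEF and 5.78, 1.76 and 3.60 in GAD67 against MEF. Across the 38 members, which share the same libraries and are not independent, Spearman's rho of span with the iGABA against GAD67 difference was -0.31, and it was -0.13 across the 18085 genes. What span has to do with the levels was not tested.

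Among members at 10 CPM or more in a group, the median coefficient of variation between replicates was 4.97% over 23 members in iGABA, 8.93% over 28 in GAD67 and 2.63% over 10 in MEF, which are different genes. It exceeded 25% for 6 members in GAD67, highest for Grm5 at 50.6%, for none in iGABA and for 1 in MEF, Shank1 at 27.4%. GAD67 replicate 9 was the lowest of its group for 25 of 38 members (65.8%, against 40.3% of all tested genes), and GAD67 replicate 7 for none (22.0% of all genes). In that replicate 9 Camk2b was at 28.3 CPM, against 57.2 and 75.1 CPM in replicates 7 and 8, and Grm5 at 25.02, against 60.6 and 80.1 CPM. The 7 endothelial markers summed to 30.0, 15.7 and 53.6 CPM in GAD67 replicates 7, 8 and 9, highest in replicate 9. The 12 glutamatergic markers summed to 1178, 1172 and 1218 CPM in the same libraries. Among them Neurod6 was at 12.4, 9.25 and 21.2 CPM, highest in replicate 9, while Emx1 had 61, 56 and 47 counts, lowest there. The part of endothelial and glutamatergic cells in the lower values was not tested. Without replicate 9, all 38 members were still called in GAD67 against MEF, and 37 in iGABA against GAD67, where Grik4 lost its call.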

How the data were processed

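RNA sequencing of 9 mouse samples, 3 each of iGABA, GAD67 and MEF, was analysed from a table of read counts per gene that the authors deposited, not normalised. The tools on record are BWA 0.7.2, featureCounts and DESeq 1.10.1, on mm10, per the submitters' processing notes, which give no roles. Per the labels' protocols, strand-marked libraries were made by the dUTP method; the strand setting of the counting is not given in the sources used here, so genes that overlap another on the opposite strand are uncertain. Exon lengths are a deposited column of the table. Symbols came from GENCODE vM21 and matched 35449 of 37224 genes (95.2%).

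Counts were fitted in R 4.3.3 with edgeR 4.0.16 (quasi-likelihood test, TMM scaling, all 9 libraries in 1 fit, common biological coefficient of variation 7.91%) after filtering at a minimum count of 10 and a minimum total of 15, which left 18085 genes. Adjusted p is Benjamini-Hochberg over these genes, and a gene rose or fell at an adjusted p under 0.05. Tested on simulated counts, the fit recovered known changes. The simulation gave every gene the same biological variation and changed few genes, so it does not test the scaling where most genes differ. CPM use TMM-scaled library sizes. Shares within a family use counts per kilobase of exon. Totals of 27501521 to 38975523 counts put 3 counts at 0.0717 to 0.11 CPM; this floor and the counting intervals cover counting error only, and reads copied by PCR, with no molecular identifiers, are not separate molecules. Within a group, libraries differed by more than sampling noise (chi-square per gene 2.41 to 27.9). Nothing in the labels states that replicates came from different cultures or animals; p-values thus measure only how far these samples differ, which can be technical.

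Members and lists were chosen with earlier results of these data known. Members at 10 CPM or more in a group (32 of 38) are given per library, and each pathway list by its counts, naming at most the 3 largest rises and falls among its genes at that level. Alternatives were DESeq2 1.42.0, its size factors in edgeR, library size alone, no filter, fits of only 2 groups and leaving out each library.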

Additional observations from a re-analysis of the deposited data

How the results depend on the processing

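No paired analysis was possible because the groups share no replicate number. Of 566 member tests under other settings, 558 kept their direction and side of the threshold, 5 lost the call, 1 gained it and 2 changed sign. Of 1026 without 1 library, 1005 kept both, 18 lost the call and 3 changed sign. Of 930 share differences, 923 kept their sign. Scaling by library size alone moved the median of all genes to 0.46 in iGABA against MEF, 0.22 in GAD67 against MEF and 0.22 in iGABA against GAD67, and the members at least 2-fold lower in iGABA than in MEF to 3 from 5. Under it Grm3 in iGABA against MEF was at 0.072, Dlg4 in iGABA against GAD67 at 0.043, and Grm7 in iGABA against MEF passed the threshold (log2 fold change 0.79, adjusted p = 0.0156, edgeR). Grm3, which had 2 counts in iGABA and 2 in MEF, ranged from -0.86 to 0.27 without 1 library. Without division by length, the share of Grik2 in iGABA minus MEF was -0.106 percentage points, that of Grik4 in iGABA minus GAD67 -0.0213, that of Grin2b in iGABA minus GAD67 0.882 and that of Camk2g in iGABA minus MEF 3.07. Without 1 library, the Grik4 difference ranged from -0.0133 to 0.240 and the Grin2b difference from -5.17 to 3.42. For these the cause was not tested. Depth limits Grin2a, Grm2, Grm3 and Grm5, which reached the filter's level in all libraries of only 1 group.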

Other observations

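Of 13 tested genes that transport and metabolise glutamate (Slc17a8 was too low to test), 8 rose and 5 fell in iGABA against MEF, 6 rose and 7 fell in GAD67 against MEF, and 5 were higher and 8 lower in iGABA than in GAD67 (all genes 42.1% and 39.7%, 43.1% and 43.8%, and 41.3% and 39.3%). The list's median log2 fold changes were 0.48, -0.32 and -0.44 in these comparisons. Slc1a2, an uptake transporter best known from astrocytes, had 9.23, 7.50 and 8.26 CPM in iGABA, 41.6, 35.6 and 45.0 CPM in GAD67 and 0.732, 0.757 and 0.574 CPM in MEF, and had the largest rise in iGABA against MEF among genes of the list with a group mean of at least 10 CPM (log2 fold change 3.60, SE 0.17, adjusted p = 3.74e-10, edgeR). Slc1a1, the neuronal uptake transporter, had 1.39, 2.17 and 1.75, 18.4, 22.8 and 14.3 and 0.806, 0.395 and 0.815 CPM in the same groups, with log2 fold changes of 1.40 in iGABA against MEF and -3.38 in iGABA against GAD67. Slc1a3 and Glud1 fell in iGABA against MEF (log2 fold changes -3.34 and -1.45). Of the other glutamate receptor genes, 4 of 5 were tested (Grm6 was not), and only Grina reached 10 CPM; its product is a membrane protein related to an NMDA receptor-associated protein and not a channel subunit. Grina averaged 289 ± 6.50 CPM in iGABA, 155 ± 11.7 CPM in GAD67 and 249.6 ± 27.7 CPM in MEF (SD, n = 3 each), with log2 fold changes of 0.21 in iGABA against MEF and 0.90 in iGABA against GAD67.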
